A study of Mus musculus with 6 samples.

Results

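The polyol and fructose pathway enzymes followed here were 5 genes chosen by symbol for their place in the pathway: the aldose reductase genes Akr1b3, Akr1b7 and Akr1b8, the sorbitol dehydrogenase gene Sord and the ketohexokinase gene Khk. All 5 matched a gene identifier in the count table, out of 55487 identifiers, and all 5 were among the 16957 genes with enough counts to be tested. Gene expression was measured by total RNA sequencing of mouse ovaries at postnatal day 49. The 3 wildtype and 3 GalTKO samples shared 1 strain label, cbl/6-ola/129, and both genotypes had been fed galactose at 2.5% of the diet for 4 weeks from weaning. GalTKO mice lack Galt, the Leloir pathway enzyme whose deficiency causes classic galactosemia. All 6 samples came from galactose-fed animals, so each difference below is one between these groups of samples under that diet. The labels do not say whether a sample is 1 animal, and p-values then measure only the spread between these samples, which may be technical.

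In the polyol pathway, aldose reductases use NADPH to turn a sugar into its alcohol. Glucose becomes sorbitol and galactose becomes galactitol. Sorbitol dehydrogenase then oxidises sorbitol to fructose, and ketohexokinase phosphorylates fructose so that an aldolase can split it. Galactitol is a poor substrate of sorbitol dehydrogenase, and its build-up in tissues such as the lens is a known feature of galactosemia.

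Totals ran from 19232486 to 25729564 counts per library. Levels are given as CPM (counts scaled to a common library size) and corrected between libraries by the trimmed mean of M-values, and a change is the log2 fold change of GalTKO over wildtype with its standard error (SE). A gene was called changed where the adjusted p of edgeR's quasi-likelihood test was under 0.05, and 433 genes were, 191 higher and 242 lower in GalTKO. Galt itself stood at 17.8, 16.1 and 17.4 CPM in the wildtype libraries and at 0.155, 0.259 and 0 CPM in the GalTKO libraries, where a count of 0 allows up to 0.156 CPM. Its log2 fold change was -6.82 ± 0.41 (edgeR adjusted p = 0.000153), in the direction the genotype labels give. Oocyte, granulosa, theca and luteal marker genes were present in every library, in keeping with the ovary label. GalTKO replicate 2 stood apart: Cyp17a1, the theca androgen synthesis gene, was at 7.29 CPM there and at 119 to 399.7 CPM in the other 5 libraries, and 742 genes were called without it. The groups also differed at histocompatibility genes of chromosome 17, whose alleles vary between mouse strains. H2-Ea-ps had 0 counts in each wildtype library and 10.1, 7.38 and 9.63 CPM in the GalTKO libraries, and H2-D1 stood at 158.1, 149.96 and 153.6 CPM in wildtype and 51.2, 69.9 and 49.2 CPM in GalTKO (edgeR adjusted p = 0.000262 and 0.00117). Loss of Galt and any other genetic difference between the groups cannot be told apart in this design.

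The aldose reductase genes are close relatives on chromosome 6 (GRCm38, GENCODE M21 annotation). Akr1b3 lies at chr6:34302434-34317478 on the minus strand, Akr1b8 at chr6:34354119-34368463 on the plus strand and Akr1b7 at chr6:34412334-34423142 on the plus strand. A further family member, Akr1b10, lies between the last pair at chr6:34384218-34396950. Each of the 4 has 948 coding bases for 315 residues. Over the coding sequence Akr1b7 matched Akr1b8 at 85.0% and Akr1b10 at 89.2% of aligned positions, whereas Akr1b3 matched the other 3 at 71.6% to 72.5%. The stretch below is the longest that Akr1b7 and Akr1b8 share without a difference, coding bases 476 to 527, in the fifth exon of the longest coding transcript in each gene. It is shown because it marks how alike the counted transcripts are. Capitals mark the bases at which Akr1b3 differs from Akr1b7.
Akr1b7 (chr6:34419040-34419091): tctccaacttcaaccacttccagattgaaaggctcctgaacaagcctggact
Akr1b8 (chr6:34363378-34363429): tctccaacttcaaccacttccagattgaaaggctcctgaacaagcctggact
Akr1b3 (chr6:34310538-34310589): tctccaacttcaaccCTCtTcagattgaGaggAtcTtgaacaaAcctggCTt
A read lying inside these 52 bases could not be told apart between Akr1b7 and Akr1b8, nor from Akr1b10, which is identical there, while Akr1b3 differs at 10 of them. Such stretches are short: 31 of the 1232 windows of 50 bases in the Akr1b7 transcript (2.52%) and 42 of 1309 in Akr1b8 (3.21%) occur in another annotated transcript, and none of those in Khk does.

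For Akr1b3 the picture is different, because processed copies of its mRNA lie elsewhere in the genome. In its longest coding transcript 802 of 1338 windows (59.9%) recur in 4 processed pseudogenes, Gm6644, Gm6736, Gm12138 and Gm43855. Together these were given 100 counts over the 6 libraries, 0.640% of the Akr1b3 count. Sord has 1 such copy, Gm6652 at chr1:153619604-153620673, which is 99.3% identical to the Sord transcript over 1070 bases and shares 720 of its 2303 windows (31.3%). The sources used here do not give how reads that match several places were counted, so levels of Akr1b3 and Sord may leave out shared reads.

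Of the 5 genes, 1 was called changed (Sord, higher), beside 2.55% of all genes tested called, 1.13% higher and 1.43% lower. Groups did not overlap for 2 of the 5, Sord and Akr1b7, both higher in GalTKO, beside 23.7% of all genes tested that did not overlap in either direction and 11.8% that did not overlap and were higher. Akr1b3, Akr1b8 and Khk overlapped between genotypes.

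**Figure D1:**
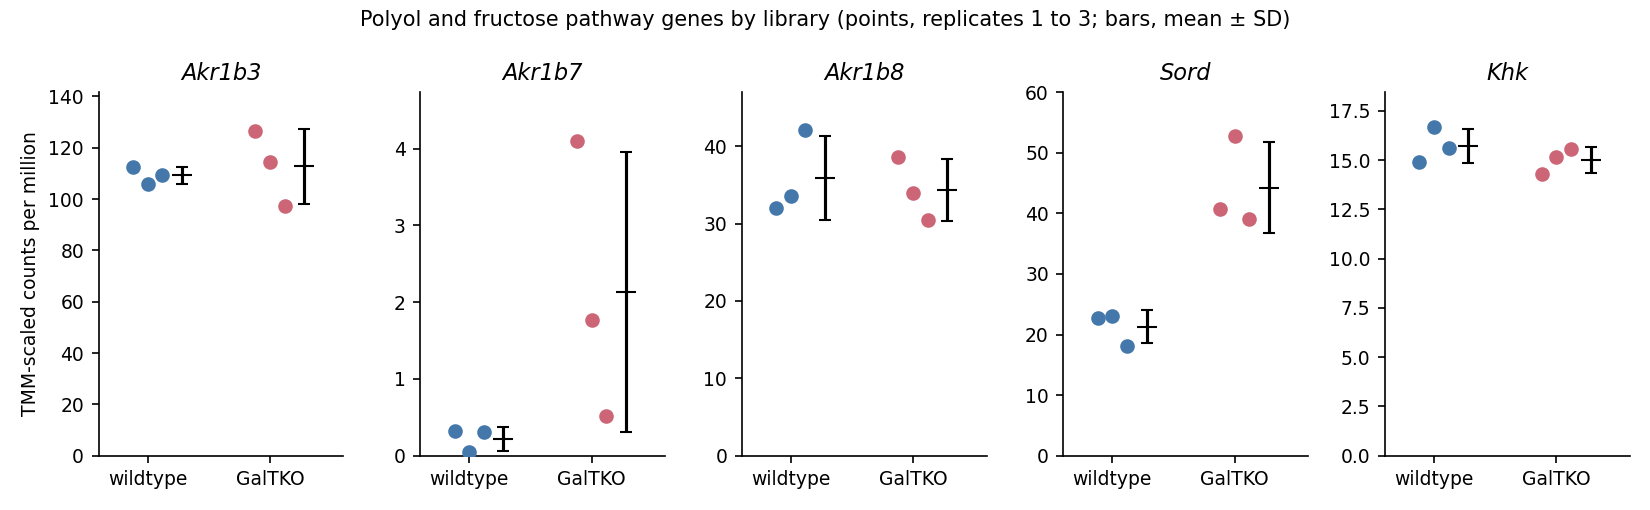
Level of each of the 5 genes in CPM (y axes start at 0 and differ between panels) in the wildtype and GalTKO libraries. Points are libraries, replicates 1 to 3 from left to right, and bars show the mean ± SD of 3 libraries. Sord is at 18.1 to 23.0 in wildtype and 39.0 to 52.8 in GalTKO, and the GalTKO values of Akr1b7 run from 0.521 to 4.10.

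Sord (ENSMUSG00000027227, chr2:122234749-122265340, plus strand) encodes sorbitol dehydrogenase, the second enzyme of the polyol pathway. Its level was 22.75, 23.0 and 18.1 CPM in the wildtype libraries and 40.8, 52.8 and 39.0 CPM in the GalTKO libraries. Every GalTKO library was above every wildtype library, and the lowest GalTKO value stood well clear of the highest wildtype one. The mean was 21.3 ± 2.76 CPM (SD, n = 3) in wildtype and 44.2 ± 7.52 CPM (SD, n = 3) in GalTKO. Sord rose by 1.05 ± 0.15 (SE) on the log2 scale, a 2.08-fold change with a 95% interval of 1.64 to 2.63 (edgeR's quasi-likelihood test, adjusted p = 0.0109). By p it ranked 134 of all genes tested. Leaving out any 1 library kept the log2 fold change between 0.91 and 1.14, with edgeR adjusted p between 0.00894 and 0.0482. The lowest of these values, 0.91 ± 0.12, and the lowest adjusted p both came without GalTKO replicate 2, the library with the most Sord.

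The copy Gm6652 received 2, 7 and 8 counts in wildtype and 10, 12 and 8 in GalTKO, or 1.03% of the Sord count. With its counts added to those of Sord, the means were 21.5 ± 2.67 and 44.7 ± 7.59 CPM (SD, n = 3 each), 2.07-fold apart.

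Akr1b7 (ENSMUSG00000052131) encodes an aldose reductase-like enzyme best known from the vas deferens and the adrenal cortex, where it disposes of aldehydes such as isocaproaldehyde, a by-product of cholesterol side-chain cleavage. It was the scarcest of the 5, with 8, 1 and 7 counts in wildtype and 106, 41 and 10 in GalTKO. These are 0.320, 0.0423 and 0.303 CPM in wildtype and 4.10, 1.77 and 0.521 CPM in GalTKO. All 3 GalTKO libraries were above all 3 wildtype libraries, but GalTKO replicate 3 only narrowly. Its exact Poisson interval of 0.250 to 0.957 CPM overlaps that of wildtype replicate 1, 0.138 to 0.630 CPM (95%, counting error only). The means were 0.222 ± 0.156 CPM in wildtype and 2.13 ± 1.82 CPM in GalTKO (SD, n = 3 each).

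The fitted log2 fold change of Akr1b7 was 3.25 ± 0.86, a 9.51-fold difference with a 95% interval of 2.35 to 38.4, and it did not pass the test over all genes (edgeR unadjusted p = 0.00631, adjusted p = 0.117). Summed over libraries and scaled by depth, the GalTKO count was 10.3 times the wildtype count, with a counting interval of 6.16 to 18.5. Such an interval covers counting error only and leaves out the spread between libraries. The ratio was 5.39 (3.03 to 10.1) without GalTKO replicate 1, which held most of the GalTKO counts. Akr1b7 did pass without GalTKO replicate 3 (log2 fold change 3.69, edgeR adjusted p = 0.0432) and in the DESeq2 Wald test with all libraries (3.26, adjusted p = 0.00189). Those settings called 1.85% and 6.19% of all genes tested.

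Because the adrenal cortex expresses Akr1b7, adrenal cortex markers were read beside it. Of 5 such markers, Cyp11b2, the aldosterone synthase gene, had 0 counts in all 6 libraries, and Cyp21a1, the steroid 21-hydroxylase gene, had 0 counts in the 3 GalTKO libraries and 1.06 CPM in wildtype replicate 2. Mc2r, the ACTH receptor gene, was at or below 0.0866 CPM throughout. Cyp11b1, the 11-beta-hydroxylase gene, stood at 1.44, 3.00 and 5.20 CPM in wildtype and 0.735, 5.44 and 0.677 CPM in GalTKO. It was highest in GalTKO replicate 2, which held the most Akr1b7 after GalTKO replicate 1. It was lowest in GalTKO replicate 3 and next lowest in GalTKO replicate 1, where Akr1b7 was highest. The summed level of the 5 markers, most of it Mrap, was 53.9 to 97.3 CPM in wildtype and 42.0 to 73.2 CPM in GalTKO. Whether adrenal tissue contributed to the Akr1b7 counts was not tested. Gm13857, a pseudogene on the opposite strand inside the Akr1b7 locus, had 3 counts in all libraries together.

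Akr1b3 (ENSMUSG00000001642) is the mouse aldose reductase proper, the counterpart of human AKR1B1. Its level was 112.5, 106.0 and 109.3 CPM in wildtype and 126.4, 114.5 and 97.3 CPM in GalTKO. The GalTKO libraries lay on both sides of the wildtype range, with replicate 3 lowest and replicate 1 highest of all 6. The means were 109.3 ± 3.26 CPM in wildtype and 112.75 ± 14.6 CPM in GalTKO (SD, n = 3 each). The log2 fold change was 0.05 ± 0.10 (edgeR adjusted p = 0.868), with a 95% interval of 0.875- to 1.22-fold, and it was -0.04 without GalTKO replicate 1. With the counts of its 4 processed copies added, the means were 109.9 ± 3.49 and 113.5 ± 14.6 CPM.

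Akr1b8 (ENSMUSG00000029762), also known as FR-1, encodes an aldose reductase-like enzyme that reduces a range of aldehydes. It was measured at 32.1, 33.5 and 42.1 CPM in wildtype and 38.6, 33.9 and 30.5 CPM in GalTKO, so that the lowest library was a GalTKO one and the highest a wildtype one. The means were 35.9 ± 5.44 and 34.3 ± 4.06 CPM (SD, n = 3 each). Its log2 fold change of -0.06 ± 0.14 did not pass (edgeR adjusted p = 0.859), and the 95% interval ran from 0.771- to 1.19-fold. The value turned to 0.07 without wildtype replicate 3, 0.01 without GalTKO replicate 3 and 0.02 with limma voom.

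Khk (ENSMUSG00000029162, chr5:30921431-30931248, plus strand) encodes ketohexokinase, whose splice forms are not separated by gene counts. It stood at 14.9, 16.7 and 15.6 CPM in wildtype and 14.3, 15.1 and 15.6 CPM in GalTKO. The coefficient of variation was 5.61% within wildtype, where that of Akr1b3 was lower at 2.99%. Within GalTKO it was 4.36%, the lowest of the 5 there. With means of 15.7 ± 0.882 and 14.996 ± 0.653 CPM (SD, n = 3 each), Khk changed by -0.07 ± 0.11 on the log2 scale (edgeR adjusted p = 0.803). The 95% interval of its fold change, 0.801 to 1.14, does not reach the 1.64 that is the lower bound for Sord.

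Akr1b10, the family member that was not among the 5, stood at 15.2, 16.9 and 13.9 CPM in wildtype and 19.9, 25.02 and 16.7 CPM in GalTKO. Its groups overlapped by a small margin, and its log2 fold change of 0.42 ± 0.16 did not pass (edgeR adjusted p = 0.240).

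Levels of different genes were compared per kilobase (kb) of transcript. With the longest protein-coding transcript as the length, the order in wildtype was Akr1b3 (78.8 ± 2.35 CPM per kb), Akr1b8 (26.4 ± 4.01), Khk (9.93 ± 0.557), Sord (9.05 ± 1.17) and Akr1b7 (0.173 ± 0.122; SD, n = 3 each). The wildtype libraries of Khk, at 9.42 to 10.5 CPM per kb, overlapped those of Sord, at 7.70 to 9.78, and no other neighbours in this order overlapped. In GalTKO the order was Akr1b3 (81.3 ± 10.5 CPM per kb), Akr1b8 (25.3 ± 2.99), Sord (18.8 ± 3.20), Khk (9.47 ± 0.413) and Akr1b7 (1.66 ± 1.42). There Sord lay above Khk in every library, and its highest value met the lowest of Akr1b8 at 22.5 CPM per kb.

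The place of Akr1b3 in this order depends on the length chosen. Its 6 annotated transcripts include long ones, and the union of their exons spans 8384 bases against 1387 for the longest coding transcript. Over the union of exons Akr1b3 stood at 13.0 ± 0.389 CPM per kb in wildtype, below Akr1b8 at 23.96 ± 3.63, and in GalTKO at 13.4 ± 1.74, below both Akr1b8 at 22.9 ± 2.71 and Sord at 18.8 ± 3.20. With the longest transcript of any kind it was at 21.7 ± 0.650 CPM per kb in wildtype.

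**Figure D2:**
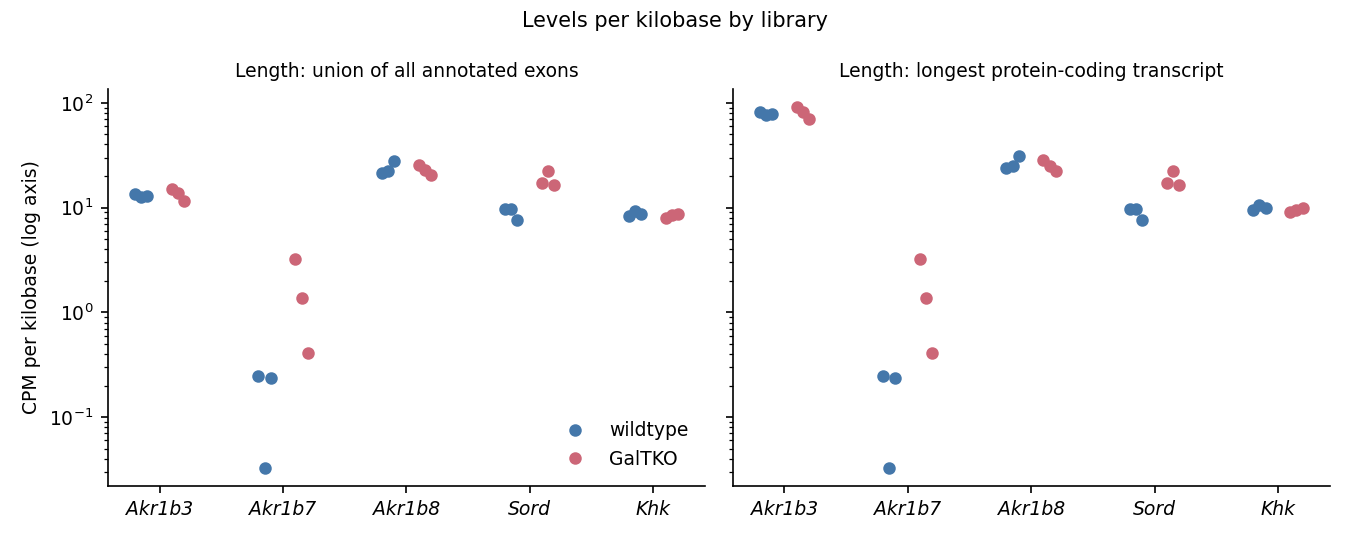
Level per kb of transcript (y axis, log scale) of the 5 genes in each library, wildtype in blue and GalTKO in red, with the union of exons (left) or the longest protein-coding transcript (right) as the length. Akr1b3 lies below Akr1b8 on the left, at 13.0 against 23.96 in wildtype, and above it on the right, at 78.8 against 26.4, and Sord and Khk lie together in wildtype but apart in GalTKO.

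Ratios between steps of the pathway were read within each library, per kb of the longest coding transcript, and are given without a test because they restate the changes above. The summed level of Akr1b3, Akr1b7 and Akr1b8 was 105.4 ± 4.47 CPM per kb in wildtype and 108.2 ± 14.9 in GalTKO (SD, n = 3 each). Akr1b3 made up 74.8% of that sum in wildtype and 75.1% in GalTKO, whereas Akr1b7 made up 0.162% and 1.44%. These shares turn on the length: over the union of exons Akr1b3 made up 35.3% in wildtype and 35.5% in GalTKO, Akr1b8 64.3% and 60.5%, and Akr1b7 0.459% and 4.06%. Sord stood at 0.119, 0.128 and 0.0977 of the Akr1b3 level in the wildtype libraries and at 0.190, 0.272 and 0.237 in the GalTKO libraries. Over the union of exons this ratio was 0.695 ± 0.0943 in wildtype and 1.41 ± 0.248 in GalTKO (SD, n = 3 each). Khk was at 0.974, 1.08 and 1.28 times the Sord level in wildtype and at 0.521, 0.426 and 0.592 times in GalTKO. Sord RNA was thus about level with Khk RNA in wildtype and above it in each GalTKO library.

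The promoters of the genes with non-overlapping groups are of different kinds. RefSeq promoter windows (GRCm38.p6, 250 bases before to 50 after the start) matched 4 of the 5 genes: Akr1b7, Akr1b8, Sord and Khk. The Sord window was 66.7% G or C with 23 CpG dinucleotides and the Khk window 65.7% with 23. The Akr1b8 window was 49.0% with 10 and the Akr1b7 window 47.0% with 3. Over all 32851 windows in the table the median was 52.7% with 7. The parts of the Sord and Akr1b7 windows that precede the annotated transcript are shown 5′ to 3′ on the plus strand, with the capitals marking a match to a searched motif.
Akr1b7 (chr6:34412112-34412333): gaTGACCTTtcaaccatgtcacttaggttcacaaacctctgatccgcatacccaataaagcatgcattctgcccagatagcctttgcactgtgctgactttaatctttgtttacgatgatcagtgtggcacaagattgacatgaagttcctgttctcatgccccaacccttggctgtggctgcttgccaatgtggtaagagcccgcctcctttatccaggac
Sord (chr2:122234589-122234748): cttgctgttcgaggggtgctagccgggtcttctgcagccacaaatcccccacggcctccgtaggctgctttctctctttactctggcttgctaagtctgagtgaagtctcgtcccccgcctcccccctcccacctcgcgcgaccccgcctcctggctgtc
Both strands of each 300-base window were searched for the SF-1 half-site AAGGTCA, the tonicity core TGGAAA bound by NFAT5, the antioxidant response core (TGAC, any 3 bases, GC) and the TATA core TATAAA, none of which overlapped another in these windows. Akr1b7 held 1 SF-1 half-site, on the minus strand 248 to 242 bases before the RefSeq start, and 4.72% of all windows held that motif. Akr1b8 held 1 TATA core, on the minus strand at 159 to 154 bases before the start, beside 13.6% of all windows. No searched motif was in the Sord or Khk windows. The tonicity core was in 21.4% and the antioxidant core in 12.4% of all windows. A match is a string of letters and not a measured binding site.

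The pathways around the 5 genes were read from lists chosen for their function. On the galactose side, the list of entry and Leloir pathway genes had 10 tested members. Of these, 0 were called higher and 1, Galt, lower, beside 1.13% and 1.43% of all genes tested. The median log2 fold change was -0.05 beside 0.02 over all genes tested. Groups did not overlap for 2 members higher and 4 lower in GalTKO, beside 11.8% and 12% of all genes tested. Galk1, the galactokinase gene, was at 31.0, 27.9 and 30.4 CPM in wildtype and 32.4, 35.6 and 31.9 CPM in GalTKO. All GalTKO libraries were slightly above all wildtype libraries, and the log2 fold change of 0.16 ± 0.10 did not pass (edgeR adjusted p = 0.441).

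Downstream of Sord and Khk, the fructose and triose list had 13 tested members, with a median log2 fold change of -0.18. Of the 13, 0 were called higher, beside 1.13% of all genes tested, and the number called lower is not reported here. Tkfc, which phosphorylates the glyceraldehyde released by aldolase, was at 17.5 ± 0.390 and 16.7 ± 0.839 CPM (SD, n = 3 each), a log2 fold change of -0.07 ± 0.10 (adjusted p = 0.783).

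Slc2a5, the fructose transporter gene, was at 0.880, 0.719 and 0.476 CPM in wildtype and 2.01, 1.34 and 1.82 CPM in GalTKO. All GalTKO libraries were above all wildtype libraries, and the log2 fold change of 1.31 ± 0.34 did not pass (edgeR adjusted p = 0.0988, and 0.0455 by DESeq2). The abundant aldolase gene Aldoa stood at -0.18 ± 0.15 (adjusted p = 0.593). In the same list Hk3, a hexokinase of myeloid cells, stood at -1.05 ± 0.25 (adjusted p = 0.0801), its groups without overlap.

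Other aldo-keto reductases gave 9 tested members, of which 0 were higher and 0 lower by edgeR, with a median log2 fold change of -0.05, while 3 of the 9 had an unadjusted p under 0.05, beside 17.1% of all genes tested. Akr1c14, a 3-alpha-hydroxysteroid dehydrogenase, was at 416, 404 and 405 CPM in wildtype and 278, 249 and 334 CPM in GalTKO. Its groups were apart, at -0.51 ± 0.11, with an edgeR adjusted p of 0.0646, 0.00312 by DESeq2 and 0.0348 by limma voom. Akr1a1, an aldehyde reductase that also handles sugars, had means of 396 ± 19.6 and 322 ± 15.5 CPM (SD, n = 3 each), a log2 fold change of -0.30 ± 0.09 (edgeR adjusted p = 0.129), called by DESeq2 alone of those 3 tools (0.0373).

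Sorbitol and galactitol are osmolytes, and Akr1b3 is a textbook target of the tonicity factor NFAT5, so osmotic response and osmolyte transport genes were listed beside it. Of the 8 tested, 1 was called lower and 0 higher by edgeR, beside 1.43% and 1.13% of all genes tested. An unadjusted p under 0.05 was found for 4 of the 8, beside 17.1% of all genes tested. Groups did not overlap for 4 of the 8, all lower in GalTKO, beside 12% of all genes tested. The median log2 fold change was -0.42, and the value was below 0 for each of the 8. Slc6a6, the taurine transporter gene, was at 567, 569 and 772 CPM in wildtype and 322, 310 and 376 CPM in GalTKO. The groups were well apart, and Slc6a6 fell by 0.92 ± 0.14 on the log2 scale (edgeR adjusted p = 0.0169, and 0.0625 without GalTKO replicate 1). Nfat5 itself was at -0.03 ± 0.12 (adjusted p = 0.929), and Slc5a3, the sodium-coupled myo-inositol transporter gene, at -0.12 ± 0.12 (adjusted p = 0.676).

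Aldose reductases draw on NADPH, and Akr1b8 belongs to a family with NRF2 targets. The NRF2 and NADPH list had 21 tested members, of which 0 were higher and 0 lower by edgeR, with a median log2 fold change of 0.06. Of the 21, 4 had an unadjusted p under 0.05, beside 17.1% of all genes tested. The pair with the smallest p was Gsta2, a glutathione transferase gene, at -0.75 ± 0.21 (adjusted p = 0.128) and Txnrd1, the thioredoxin reductase gene, at -0.43 ± 0.15 (adjusted p = 0.204). G6pdx, the gene of the first NADPH-producing step of the pentose phosphate pathway, stood at -0.12 ± 0.12 (adjusted p = 0.670).

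**Figure D3:**
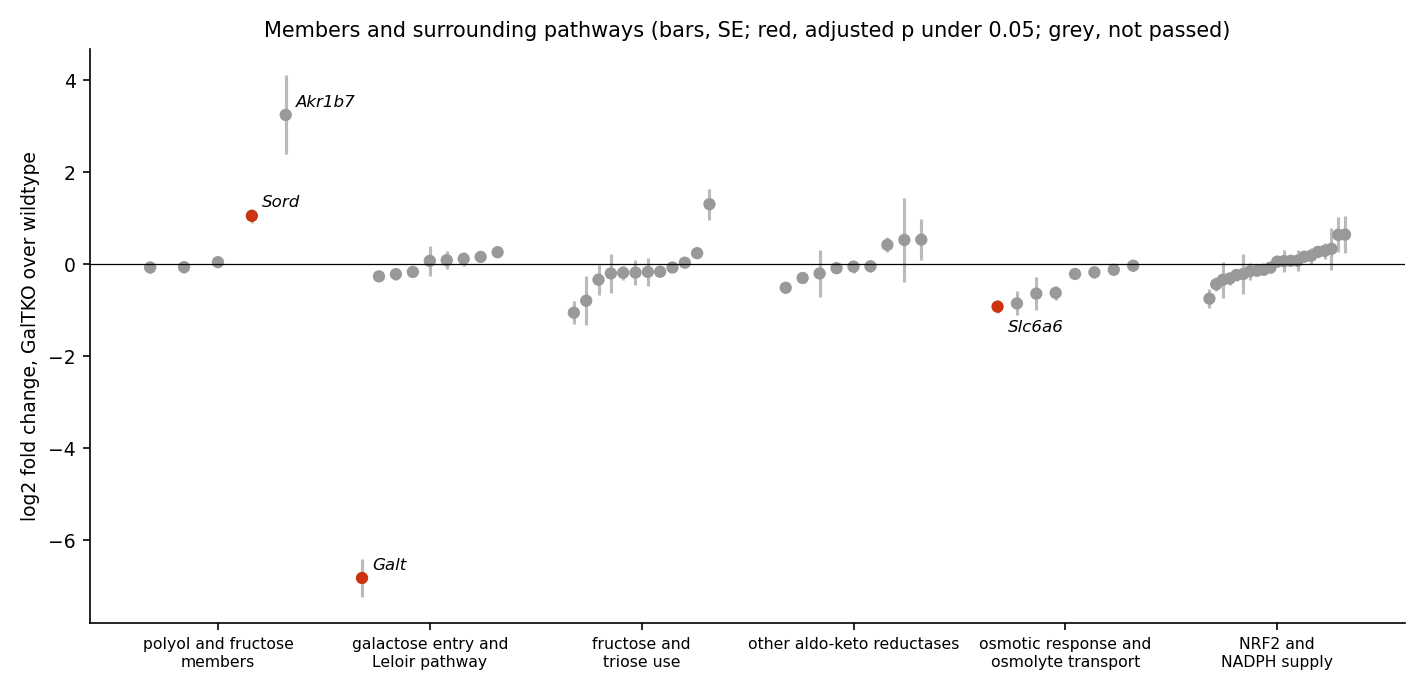
Log2 fold change of GalTKO over wildtype (y axis) for the 5 genes and tested genes of the 5 pathway lists, each list sorted by value, with bars for the SE. Red points have an edgeR adjusted p under 0.05. Sord, at 1.05, is the red point above 0, and Galt and Slc6a6 are the red points below it. Some tested genes of the lists are not shown.

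Marker genes of ovarian cell types moved as well, and the part of such shifts in the Sord and Akr1b7 values was not tested. In whole ovaries, fewer cells of a type and less RNA per cell cannot be told apart. Over all genes tested, 1.43% were called lower and 1.13% higher. Steroidogenic and luteal markers summed to 18143 to 25148 CPM in wildtype and 10961 to 17068 in GalTKO, with 2 of 13 called lower, Star and Nr5a2, and 0 higher. Endothelial markers summed to 418 to 541 CPM and 331 to 372 CPM, with 2 of 4 lower, Kdr and Pecam1. Macrophage markers summed to 182 to 222 CPM and 115 to 131 CPM, with 2 of 4 lower, Mpeg1 and Csf1r. Of these 6 genes, Kdr and Mpeg1 were called with every library left out in turn, and the highest adjusted p of the others was 0.0906 for Star, 0.135 for Nr5a2, 0.142 for Pecam1 and 0.112 for Csf1r.

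Markers of other follicle cells shifted less as sums. Granulosa markers summed to 4685 to 5828 CPM in wildtype and 4762 to 5880.2 in GalTKO, with 1 of 9 called higher, Amh (0.76 ± 0.12, edgeR adjusted p = 0.0214, and up to 0.0697 with a library left out). Theca markers summed to 1820.4 to 2026 and 1804 to 2513 CPM, and oocyte markers to 222 to 340.3 and 259 to 299.7 CPM. Stroma markers summed to 1499.6 to 1618 and 1084 to 1934 CPM. None of the 7 theca, 9 oocyte and 5 stroma genes tested was called by edgeR. At an unadjusted edgeR p under 0.05 there were 0, 2 and 0 of them, beside 17.1% of all genes tested. Of the 9 granulosa genes 4 had such a p, some higher and some lower in GalTKO, which a sum can hide. Among 5 adipocyte markers, 2 were tested and Plin1, the lipid droplet coat gene that steroidogenic cells also express, rose from 21.4 ± 1.45 to 44.5 ± 7.53 CPM, 1.06 ± 0.13 (edgeR adjusted p = 0.00617). Lep had 0 counts in all libraries, and Adipoq and Cidec were at or below 0.0866 CPM. Oviduct markers summed to at most 1.15 CPM outside wildtype replicate 2, where Ovgp1 alone reached 20.3 CPM. Liver and kidney markers summed to 19.7 to 32.2 CPM in wildtype and 32.2 to 39.0 CPM in GalTKO, most of it Apoa1, with Alb at or below 0.120 CPM.

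The call for Sord held under every setting tried, and that of Akr1b7 did not. Over 14 alternatives in scaling, test, filter, block and libraries, the log2 fold change of Sord stayed between 0.91 and 1.14. The values of Akr1b3, Akr1b8 and Khk stayed between -0.16 and 0.14 and were never called, whereas Akr1b7 ran from 2.36 to 3.69 over the 13 alternatives in which it was tested.

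**Figure D4:**
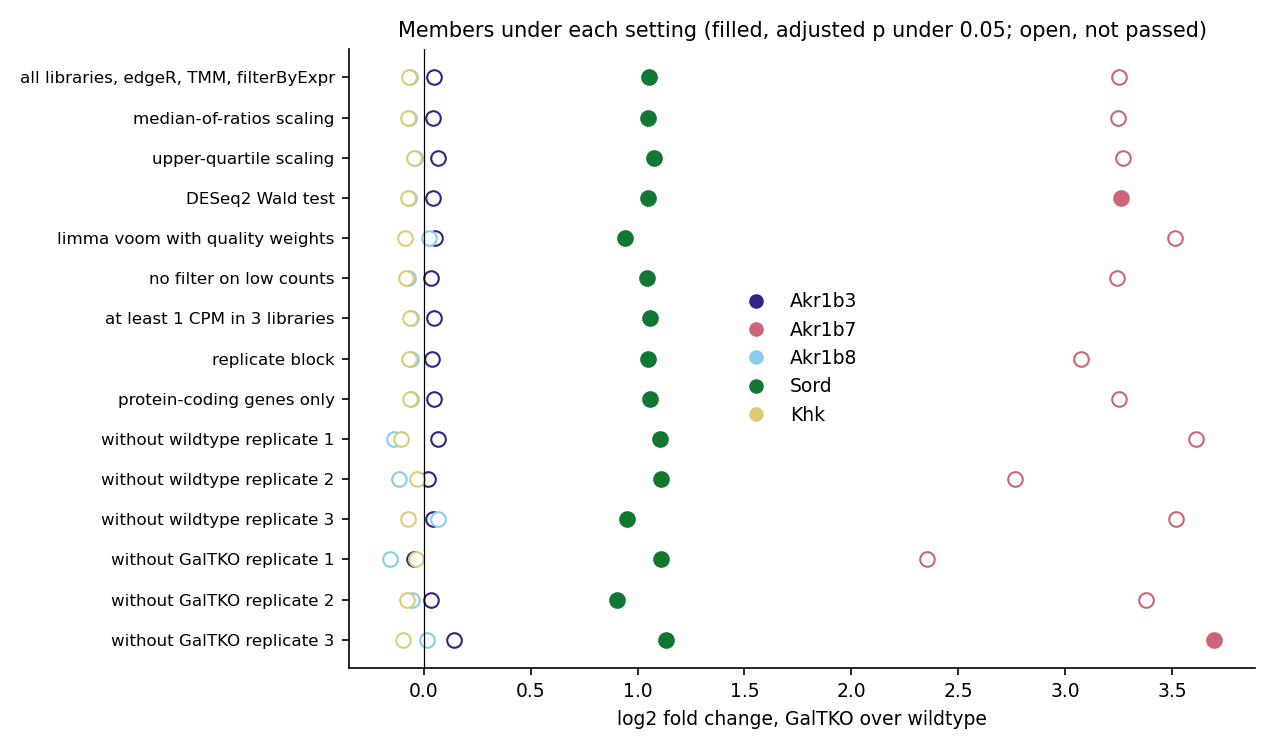
Log2 fold change of GalTKO over wildtype (x axis) of the 5 genes with all libraries and under each alternative (y axis). Filled points have an adjusted p under 0.05. The Sord points lie between 0.91 and 1.14 and are all filled, and those of Akr1b7 spread from 2.36 to 3.69 with 2 filled.

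Genes within 100 kb of the 5 were looked at after their values were known. Around Sord, 5 of 12 neighbours were tested and 0 were called by edgeR. The neighbours with the largest differences there were Duox2, at 0.708 ± 0.211 and 2.06 ± 0.736 CPM (SD, n = 3 each; log2 fold change 1.54 ± 0.37, adjusted p = 0.0815), and Duoxa2, at 0.180 ± 0.0568 and 0.879 ± 0.562 CPM (2.22 ± 0.59, adjusted p = 0.106). These encode a dual oxidase and its maturation factor, and neither passed the test. B2m was lower, at 277 ± 9.98 and 211 ± 24.4 CPM (SD, n = 3 each), and did not pass either (-0.39 ± 0.10, edgeR adjusted p = 0.0954). Groups did not overlap for Duox2, Duoxa2 and B2m, beside 23.7% of all genes tested, and they overlapped for Patl2 and Shf. Around Akr1b7, the 4 tested neighbours included Bpgm at 0.21, and 0 were called.

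Around Khk, 10 of 12 neighbours were tested and 1 was called higher. Abhd1, annotated as a processed transcript whose lower coordinate lies 28635 bases beyond that of Khk, was at 1.04, 0.973 and 0.606 CPM in wildtype and 12.3, 12.4 and 9.53 CPM in GalTKO. The groups were far apart, and Abhd1 rose by 3.70 ± 0.25 on the log2 scale (edgeR adjusted p = 0.00022), while Khk itself, as given above, overlapped between genotypes. Among the other neighbours of Khk, Cgref1 stood at 1.37 ± 0.50 (edgeR adjusted p = 0.220) and Ost4, of the oligosaccharyltransferase complex, at 0.43 (adjusted p = 0.107). Groups did not overlap, with GalTKO higher, for Abhd1, Cgref1, Ost4 and Tmem214, beside 11.8% of all genes tested. They overlapped for the other tested neighbours of Khk.

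**Figure D5:**
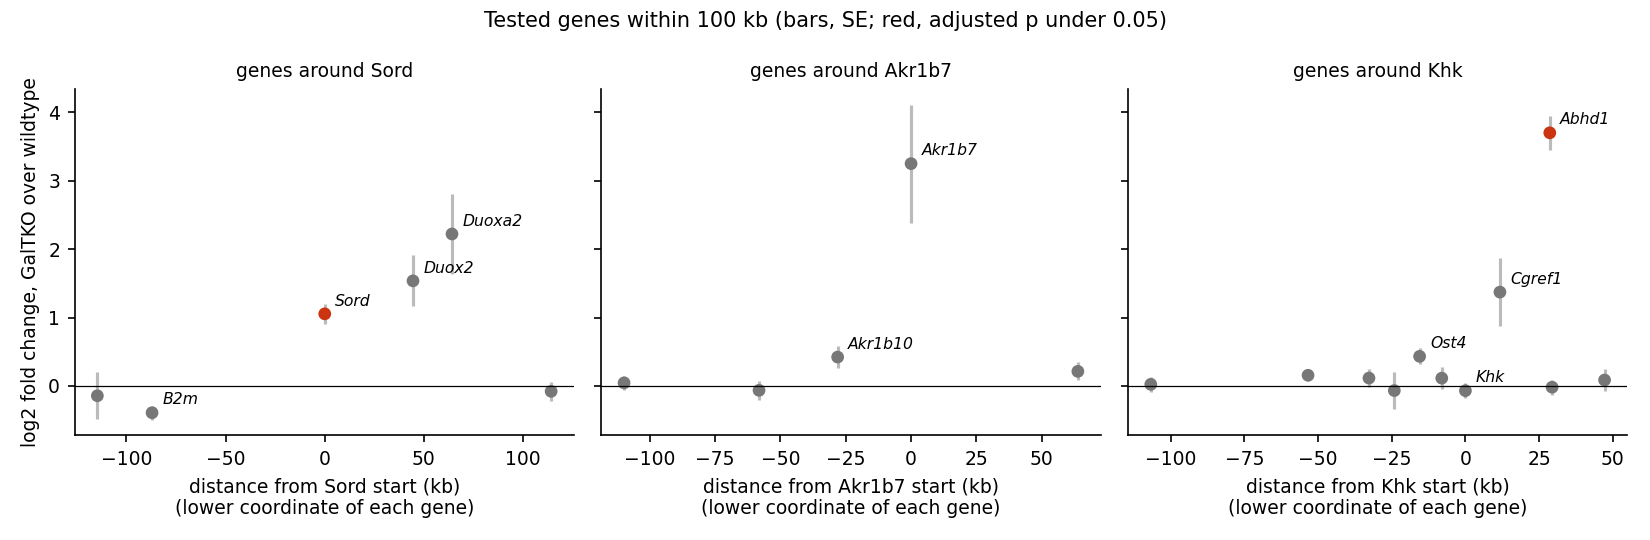
Log2 fold change of GalTKO over wildtype (y axis; bars, SE) of tested genes within 100 kb of Sord, Akr1b7 and Khk, by the distance of their lower coordinate from that of the named gene (x axis, kb). Red points have an edgeR adjusted p under 0.05: Sord at 1.05 in the left panel and Abhd1 at 3.70 in the right one, near a Khk point at -0.07.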

How the data were processed

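The authors deposited 1 table of raw counts, whole numbers per Ensembl gene that are not normalized. RNA was depleted of ribosomal RNA with Ribo-Zero Gold and made into stranded total RNA libraries, per the labels' protocols. DESeq2 1.30.1, featureCounts 1.6.3, STAR 2.7.6a and cutadapt 1.16 are named with GRCm38, per the submitters' processing notes. The sources used here do not give their roles, the strand setting or the handling of multiply matching reads. Libraries of total RNA also hold unspliced and non-polyadenylated RNA. Whether reads from introns were counted, which could raise the level of long genes, is not given either.

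Samples were grouped by genotype from their titles. Gene names came from GENCODE M21: of 55487 identifiers, 55227 matched, and 260 with 0.00307% of counts did not. In R 4.3.3, edgeR 4.0.16 kept genes by filterByExpr (minimum count 10, minimum total 15), scaled by TMM and fitted a robust quasi-likelihood model with genotype alone to all 6 libraries. CPM used the counts in tested genes times the TMM factor. Adjusted p is Benjamini-Hochberg over 16957 genes, two-sided. Intervals are at 95%, and a count of 0 was taken to allow 3 counts. The fit was tested on simulated counts. No pair of replicates agreed within sampling noise (chi-square per degree of freedom at least 12.0). Alternatives were upper-quartile or median-of-ratios scaling, DESeq2 1.42.0, limma 3.58.1 voom with quality weights, no filter, at least 1 CPM in 3 libraries, a replicate block, protein-coding genes only and each library left out. The longest protein-coding transcript as the length, and the shares and ratios over other lengths, were added after seeing the data. Sequences are from RefSeq (promoters) and GENCODE M21 (transcripts), read in Python 3.11.15 with Biopython 1.88.

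The 5 genes and the 16 gene lists were chosen with earlier results of these data known. Named genes were Galt, the 5 genes, in each list every called gene (at most 6) or otherwise the 2 with the smallest p, the most abundant marker, and the 3 genes most like each of the 5, and markers among them that did not pass are mostly given as sums. Akr1b10, H2-Ea-ps, H2-D1, Cyp17a1, Galk1, Slc2a5, Tkfc, Aldoa, Hk3, Nfat5, Slc5a3, G6pdx, the pseudogenes, the neighbours and the adrenal, adipocyte and liver markers at or near 0 were named after their values were seen. Some genes that the rule names are left out of the text and plots and are not reported here.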

Additional observations from a re-analysis of the deposited data

How the results depend on the processing

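Called genes over the whole table numbered 433 with all libraries, 1049 with DESeq2, 877 with no filter on low counts, 264 among protein-coding genes only and from 165 to 742 with 1 library left out. Of the 5 genes, 2 were called with DESeq2 (6.19% of all genes tested were) and without GalTKO replicate 3 (1.85%), and 1 otherwise; the number ranged from 1 to 2 with 1 library left out. The second was Akr1b7, at 3.26 with DESeq2 and from 2.36 to 3.69 with 1 library left out, and it was not tested with at least 1 CPM in 3 libraries. Akr1b8 reversed to 0.024 with limma voom and ranged from -0.16 to 0.066 with 1 library left out, with 0.066 without wildtype replicate 3 and 0.013 without GalTKO replicate 3. Akr1b3 reversed to -0.045 without GalTKO replicate 1 and ranged from -0.045 to 0.14. None of these 4 reversals passed the test, and their cause was not tested. Sord and Khk kept their direction and their side of the threshold in all 14 alternatives. Among marker genes, the call was lost for Star and Csf1r without any 1 wildtype library or GalTKO replicate 1, for Nr5a2 without any library but GalTKO replicate 2, for Pecam1 without any but wildtype replicate 1, and for Amh without wildtype replicate 1 or 2 or GalTKO replicate 1. The call of Pecam1 was also lost with limma voom (adjusted p = 0.0570). By edgeR it was lost with protein-coding genes only (adjusted p = 0.0580) and with upper-quartile scaling (0.0501). Nr5a2 was also not called with protein-coding genes only (edgeR adjusted p = 0.0539). Per kb, Akr1b3 moved to 21.7 in wildtype and 22.4 in GalTKO with the longest transcript and to 78.8 and 81.3 with the longest protein-coding transcript, and Khk to 9.93 and 9.47 with either, since the length itself changed.

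Whether replicate numbers pair the samples is not settled: the correlation of deviations was 0.117, -0.0424 and 0.0941 for numbers 1, 2 and 3. Between unlike numbers it ran from -0.143 to 0.0345. With the number as a replicate block, 321 genes were called, Sord stood at 1.05 (edgeR adjusted p = 0.0111), Akr1b7 at 3.07 (0.119) and the other 3 between -0.07 and 0.04. The calls of Nr5a2 (0.0986) and Csf1r (0.0595) were lost with it. Samples numbered 1 and 3 correlated best with their own number in the other group, and those numbered 2 did not. Akr1b7 had 16 counts in all wildtype libraries together, and its GalTKO libraries had a coefficient of variation of 85.3%. The part of depth in its adjusted p was not tested.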

Other observations

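Each of the 5 genes was also set against 13141 protein-coding genes with a mean of at least 1 CPM, by the Pearson correlation of log2 CPM over the 6 libraries. These are descriptions over 6 points that share depth and genotype. Nearest to Sord were Zfp523 (0.997), Dusp12 (0.996) and Cactin (0.994). Their log2 fold changes were 0.29, 0.29 and 0.23, with edgeR adjusted p of 0.130, 0.244 and 0.243. All were higher in every GalTKO library than in any wildtype one, which follows from choosing them by likeness to Sord. Nearest to Akr1b7 were Heyl (0.994), a Notch target, Isyna1 (0.993), the inositol 3-phosphate synthase gene, and Syn2 (0.992). Isyna1 was at 150.1, 138.6 and 150.2 CPM in wildtype and 294.7, 211.5 and 165.9 CPM in GalTKO. Its log2 fold change of 0.62 ± 0.19 did not pass (edgeR adjusted p = 0.163). Its GalTKO libraries were in the same order as for Akr1b7, which the choice by likeness favours. Nearest to Akr1b3 were Prmt5 (0.995), Ncln (0.991) and Copa (0.989), nearest to Akr1b8 were Kdm5b (0.979), Dbnl (0.977) and Ttll12 (0.971), and nearest to Khk were Bmf (0.983), Apoc1 (0.961) and Selenop (0.955).

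Akr1c18, the 20-alpha-hydroxysteroid dehydrogenase that inactivates progesterone, varied widely within each genotype. It was at 1295, 585 and 184 CPM in wildtype and 1049.7, 265 and 1666 CPM in GalTKO. The groups overlapped over most of their range, and the log2 fold change was 0.53 ± 0.92 (edgeR adjusted p = 0.825).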
